A study of Mus musculus with 24 samples.

Results

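Some autosomal genes are transcribed from a single parental allele in a given cell clone and from both alleles in another clone of the same genotype. This state, known as clonal or random monoallelic expression, is set in single cells, is kept through cell division and is seen in lymphoid clones among other cell types. It differs from genomic imprinting, in which the parent of origin decides which allele is silent in every cell, and it can be read only where the maternal and paternal copies carry sequence differences.

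The genes described here were those expressed from both alleles in the cell line Abl.1 and almost wholly from 1 allele in the cell line Abl.2. Both are clonal lines of immortalised B cells, made by Abelson transformation on a 129S1/SvImJ x CAST/EiJ F1 background, and the labels give them as female control cells in growth medium. Each line was sequenced as 2 SMARTseq libraries from 10 ng of RNA, and the Abl.2 libraries were loaded a second time on another lane. Kidney tissue from 1 adult female of the same cross, also given as control, supplied 18 further libraries from a single RNA, 6 each with NEBNext from 100 ng, SMARTseq from 10 ng and SMARTseq from 100 pg. Each clone is 1 line, and its 2 libraries are library preparation replicates, so every spread given below is the spread between libraries, not between cultures or animals.

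Allelic imbalance (AI) is the count in the maternal column divided by the sum of the maternal and paternal columns. A gene was taken as a member when its AI, pooled over both first-run libraries of Abl.2, was at most 0.1 or at least 0.9 and its pooled AI in Abl.1 lay from 0.3 to 0.7, with 100 or more pooled counts in each clone. Chromosomes 4, 7, 10, 11 and 18, the sex chromosomes and the symbols that start with Zfp, H2-, Rpl or Rps were left out. Of 37315 genes in the table, 5647 could be members and 117 were, which is 2.07% (a share fixed by the rule). Of these genes, 114 were protein-coding. The members were thus chosen by their AI and counts in the clones, so AI and levels there are given as a description with no test, and tests are given for kidney alone, which the choice did not use.

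The first-run clone libraries held 19213150 to 22241719 allelic counts and the kidney libraries 6138693 to 6702351. Between replicate libraries AI varied more than binomial sampling gives, by a factor (the QCC) of 2.54 in Abl.1 and 2.18 in Abl.2, and intervals below are widened by it. All 15 B lineage markers checked had 10 or more counts in both clones, with a summed level of 13202.3 to 17609.7 CPM, the counts of both columns scaled to library size by TMM. The T cell list summed to 104.1 to 113.5 CPM in Abl.1 and at most 10.2 in Abl.2, the myeloid list to 220.1 to 223.7 and 566.9 to 573.8, the erythroid list to 2.36 to 2.82 and 1.33 to 1.92, and the kidney list to 0.383 to 1.12 and 11.9 to 14.1. The part of other cell types in the results was not tested. Of the 10 T cell genes 5 had 10 or more counts in Abl.1 and 3 in Abl.2, of the 10 myeloid genes 5 and 3, of the 8 erythroid genes 2 and 2, and of the 10 kidney genes 1 and 4. Defining genes at 0 in both clones were Cd3g, Adgre1, S100a8, Hbb-bs and Slc12a1. Column names are used here as deposited. In kidney, 5 of 5 known maternally expressed imprinted genes with 50 or more counts were higher in the paternal column and 8 of 10 paternally expressed ones were higher in the maternal column, so the columns may not name the parent of origin.

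**Figure D1:**
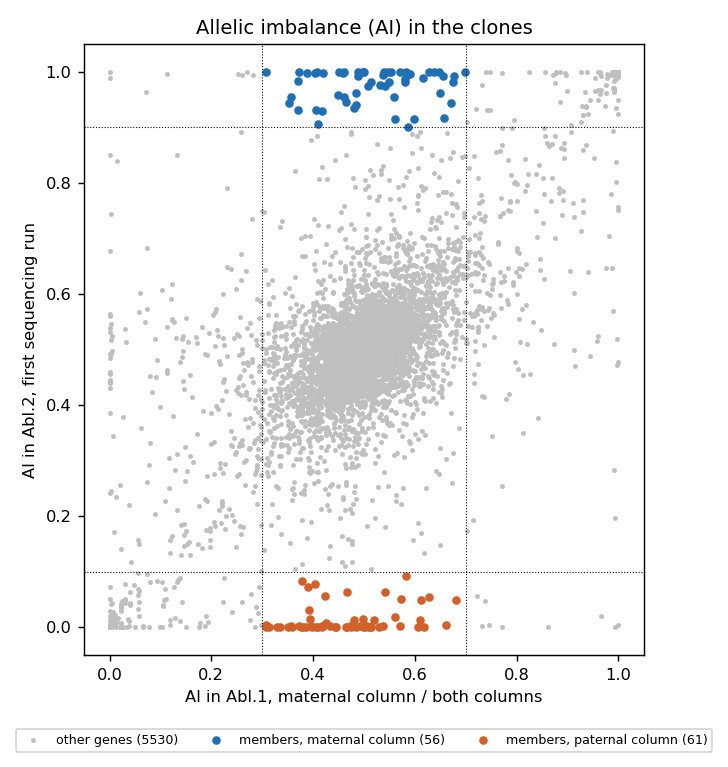
Pooled AI of each of the 5647 genes in Abl.1 (horizontal) against Abl.2 (vertical), with the thresholds as dotted lines. The 56 members expressed from the maternal column lie along the top, the 61 expressed from the paternal column along the bottom, and most other genes cluster around 0.5 in both clones.

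Abl.2 used the maternal column allele for 56 members and the paternal column allele for 61. The other allele was often close to absent from the Abl.2 counts. It made up 1% or less of Abl.2 counts in 70 of the 117 genes, above 1% and up to 5% in 25, and above 5% in 22. In 35 genes it had 0 counts in the first run, and 17 of these were also at 0 in the second. The name monoallelic is therefore strict for some members and loose for others. It describes RNA counts alone, and whether both copies of each gene were present in the DNA of Abl.2 was not tested. The median share of the other allele was 1.25% in genes expressed from the maternal column and 0.187% in those expressed from the paternal column. In Abl.1 the same genes had a median AI of 0.487, and 74 of them lay from 0.4 to 0.6. The AI intervals of the clones did not overlap for any of the 117 genes, which the rule all but fixes. The Abl.2 interval lay wholly within 0.1 of an end for 86 of the 117. The Abl.1 interval lay wholly within 0.3 to 0.7 for 83. Median pooled counts of members were 635.0 in Abl.2 and 1366.0 in Abl.1, against 2111.0 and 1530.0 over the 5647 genes.

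The opposite set, monoallelic in Abl.1 and biallelic in Abl.2, held 50 genes, or 0.885% of the 5647. In all, 339 genes were monoallelic in Abl.2. Apart from the members, 152 of these were monoallelic in Abl.1 on the same column, 6 on the opposite column, and 64 had an intermediate AI there.

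The most deeply counted members expressed from the maternal column were Cnn3, Mt1, Smad3, Oas1a, Tpd52, Endou, Egfl7 and Cyp4f16. Cnn3, which encodes the actin-binding protein calponin 3, had an AI of 0.462 and 0.459 in the Abl.1 libraries and of 0.999 and 0.999 in the Abl.2 libraries. Its other allele gave 12 of 9065 counts in Abl.2, or 0.132%. Oas1a, an interferon-induced oligoadenylate synthetase, had an AI of 0.434 and 0.463 in Abl.1 and of 1.00 and 0.998 in Abl.2. Tpd52, a vesicle trafficking protein, was equally steady, at 0.404 and 0.402 against 0.998 and 0.998. In these genes the libraries of each clone lay close together and far from the other clone, a distance that the rule sets. Smad3, which carries transforming growth factor beta signals to the nucleus, was less complete. Its AI was 0.642 and 0.565 in Abl.1 and 0.909 and 0.920 in Abl.2, and the minor allele still gave 2944 of 34604 counts, or 8.51%.

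Among members expressed from the paternal column the highest counts were those of Hmces, Phlda3, Ttc3, Prkch, Pdlim1, Emb, Casp6 and Pag1. Phlda3, a p53 target that restrains Akt, had an AI of 0.519 and 0.492 in the Abl.1 libraries and of 0.00109 and 0.00314 in the Abl.2 libraries. Casp6, the executioner protease caspase 6, had an AI of 0.543 and 0.518 in Abl.1 and 0 maternal column counts of 184 in Abl.2. Counting error alone allows a share of up to 1.63% there, and the QCC-widened interval reached an AI of 0.0900. Pag1, a membrane adaptor that recruits the kinase Csk, had 0 maternal column counts of 841 (up to 0.357% by counting error alone), with a QCC-widened interval up to an AI of 0.0212. The second run of the same libraries gave an AI of 0.00453, above the counting limit and within the interval. Hmces, which protects abasic DNA sites, leaned to the paternal column in both clones, with 0.304 and 0.309 in Abl.1 and 0.000694 and 0.00160 in Abl.2. The limits given for a count of 0 cover counting error alone, while the QCC-widened intervals also cover the spread between libraries. A read over several variants is counted at each, so counts are not independent molecules.

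**Figure D2:**
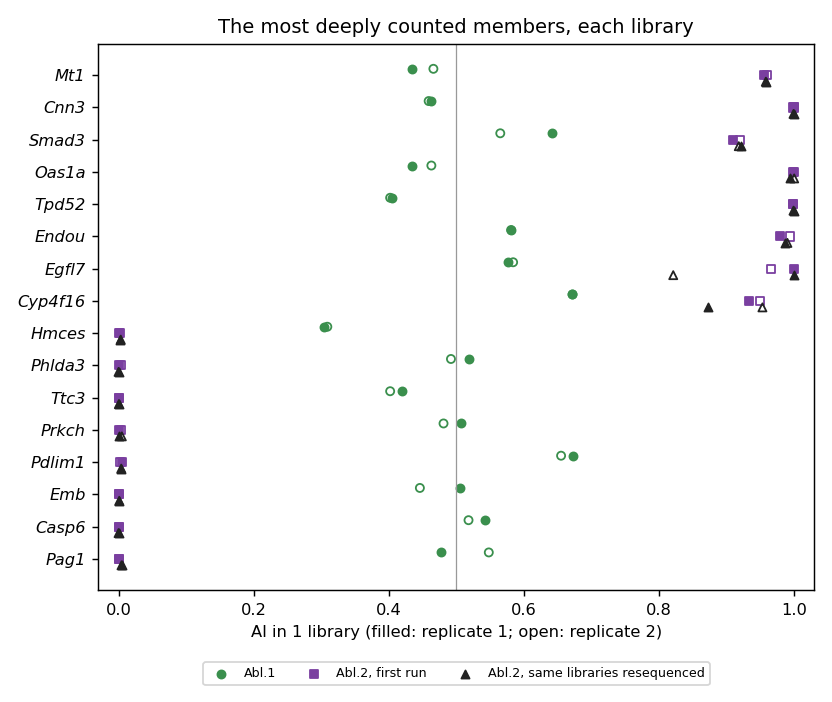
AI in each library (horizontal) of the 16 members with the highest counts, 8 for each expressed column. Circles are Abl.1, squares the first run of Abl.2 and triangles the same Abl.2 libraries resequenced, with filled symbols for replicate 1 and open ones for replicate 2. Abl.1 stays between 0.304 and 0.672 and Abl.2 sits at the edges, with the resequenced Egfl7 library 2 at 0.821 and Cyp4f16 library 1 at 0.873 as the furthest strays.

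Resequencing kept 111 of the 117 genes within the Abl.2 limits. The 6 that missed were Avpi1, Gm13963, Mast4, Nrg4, Rbbp9 and Siae. Gm13963, an antisense transcript beside Fmn1, kept an AI of 0 and fell short on depth, with 83 counts, while the other 5 passed a limit by little, as Nrg4 did with 0.878 and Rbbp9 with 0.108. This run reads the same libraries again, so it checks counting and not biology. The largest change in pooled Abl.2 AI between runs was 0.0729, in Egfl7.

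Single libraries were less uniform than the pools. Both first-run Abl.2 libraries alone met the limits in 111 genes, both resequenced ones in 103 and both Abl.1 libraries in 103. In all, 19 genes missed in at least 1 of the 4 first-run libraries. The widest misses were in Abl.1, where Nudt7 had an AI of 0.820 in replicate 1 and 0.544 in replicate 2, Itga1 had 0.186 and 0.457, and Lrrc61 had 0.184 and 0.344. Itga1 and Lrrc61 rested on 43 and 49 counts in the library that missed. Their biallelic state in Abl.1 is thus the least certain of the genes named here.

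Several genes lay at the edge of the rule. Abca3, with 9.99% of its Abl.2 counts from the other allele, and Nrg4 (0.906) were just inside the upper Abl.2 limit, with Jag2 (0.891) and Arhgef12 (0.891) just outside. At the lower limit, Rbbp9 (0.0923) and Sirt5 (0.0836) were inside and Cnn1 (0.104) and Ifi203-ps (0.106) outside. In Abl.1, Hmces (0.307) and Lrrc61 (0.307) lay just above the lower bound and Pla2g12a (0.297) and Rogdi (0.294) just below it. Nudt7 (0.699) and Zdhhc8 (0.681) lay within the upper bound, beyond which came Unc13a (0.702) and Itpk1 (0.721).

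Total expression, both columns summed and scaled by TMM, was lower in Abl.2 for most members. The median log2 ratio of Abl.2 over Abl.1 was -1.40 over the 117 genes and 0.01 over the 5647. Totals at least 2-fold lower in Abl.2 were found for 73 of the 117 (62.4%), against 15.7% of the 5647, and totals at least 4-fold lower for 40 (34.2%), against 4.37%. A total at least 2-fold higher was found for 6 (5.13%), against 13.5%, and 38 (32.5%) lay within 2-fold, against 70.9%. A lower total of any size was found for 106 (90.6%), against 49.5%. These shares come from the contrast that chose the genes. In bulk RNA, fewer expressing cells and less RNA per cell cannot be told apart. The 50 genes of the opposite set showed a smaller shift: their median log2 ratio of Abl.1 over Abl.2 was -0.21, and 18 of them had a total at least 2-fold lower in Abl.1. With raw totals as the scale, the median of all 5647 genes itself moved by 0.34 and the members' median lay 1.42 below it.

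The level of the allele that Abl.2 kept was examined as well. Its median log2 ratio of Abl.2 over Abl.1 was -0.42, and it stayed within 2-fold in 62 of the 117 genes, was at least 2-fold lower in 44 and at least 2-fold higher in 11. Over both columns of the genes biallelic in both clones these shares were 73.5%, 12.9% and 13.6%. For genes biallelic in both clones the maternal and paternal columns had medians of 0.04 and 0.06. This kept-allele median was -0.09 when libraries were scaled by total allelic counts, with 37 genes at least 2-fold lower and 22 at least 2-fold higher, so its distance from 0 depends on the scaling.

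The steepest falls in total were those of Egfl7, Vat1l and Casp6. Egfl7, a secreted factor of endothelial cells, was at 431.4 and 290.3 CPM in the Abl.1 libraries and at 2.16 and 2.36 in the Abl.2 libraries, a 159.6-fold lower level, and its kept allele alone was 94.2-fold lower. Casp6 fell from 262.0 and 220.5 to 3.62 and 3.88, a 64.3-fold difference. Vat1l was at 127.9 and 182.1 in Abl.1 and at 4.03 and 0.480 in Abl.2, so its Abl.2 level differed between libraries and rested on 97 and 12 counts. For these 3 genes the AI in Abl.2 describes a residue of expression.

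Smad3, Fam129c and Itga1 went the other way. Smad3 was at 109.7 and 112.6 CPM in Abl.1 and at 692.6 and 717.9 in Abl.2, a 6.35-fold higher level, with its kept allele 9.63-fold higher. Fam129c, a Niban-like gene known from B cells, was at 10.1 and 15.1 against 140.5 and 140.8. Itga1, the integrin alpha 1 chain of a collagen receptor, had a kept allele at 2.17 and 2.44 against 26.9 and 26.1. No library of either clone overlapped the other clone in these 3 genes, which follows largely from their choice by the highest ratios. The other 3 members at least 2-fold higher in Abl.2 were Prodh, Rnf150 and Carmil2.

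In Pdlim1, Epdr1 and Ttc3 the kept allele had a log2 ratio of Abl.2 over Abl.1 of -0.01, -0.05 and 0.55. Pdlim1, a cytoskeletal PDZ and LIM domain protein, had a kept allele at 82.3 and 95.1 CPM in Abl.1 and at 87.6 and 89.0 in Abl.2, while its total was 2.97-fold lower. Epdr1, an ependymin-related glycoprotein, fell in total from 58.6 and 79.2 CPM to 32.5 and 34.3, with 0 of 1638 counts from the maternal column in Abl.2 (up to 0.183% by counting error alone, and an AI of up to 0.0110 in the QCC-widened interval). In Pdlim1 the kept-allele values of the clones overlapped. Ttc3, a ubiquitin ligase, had a total within 1.16-fold of Abl.1, and its paternal column allele, higher in both Abl.2 libraries, was at 129.2 and 106.7 in Abl.1 and at 175.6 and 169.7 in Abl.2.

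**Figure D3:**
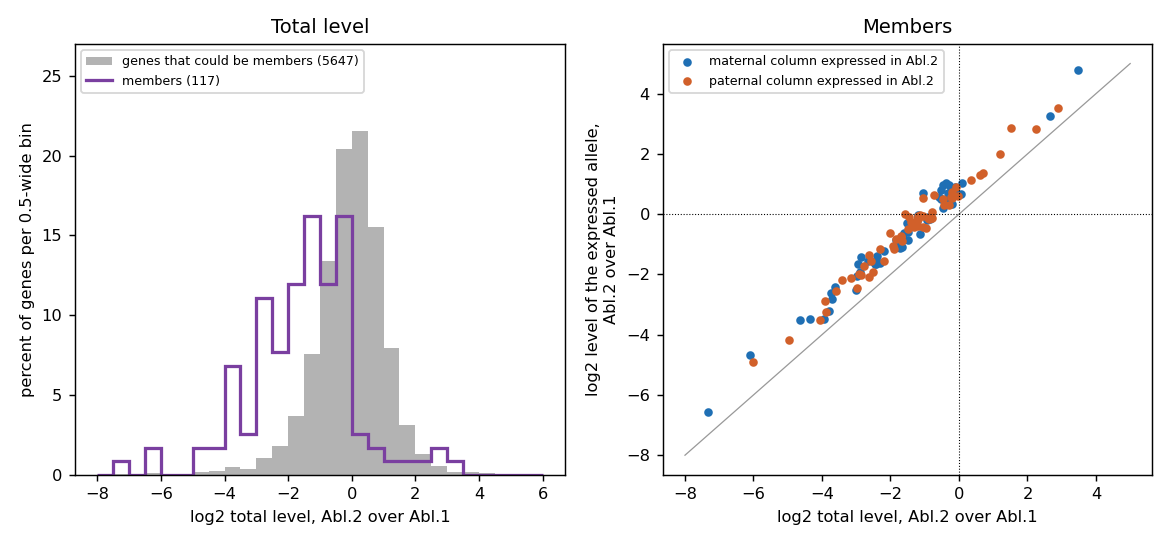
Left, share of genes (percent per 0.5-wide bin) by log2 total level of Abl.2 over Abl.1, filled for the 5647 genes and as a line for the 117 members, whose medians are 0.01 and -1.40. Right, the log2 total of each member (horizontal) against the log2 level of the allele expressed in Abl.2 (vertical), with the line of equality. Points lie above the line, since Abl.1 also counts the other allele.

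The genes around the members were examined next. A neighbour was the nearest gene on either side with 100 or more counts in each clone. Neighbours on both sides had an AI from 0.3 to 0.7 in Abl.2 for 76 of the 117 (65.0%), against 75.9% of the 5647. Members thus had biallelic neighbours less often than the 5647 genes as a whole, a difference that was not tested. The neighbour 1 gene to the right drew a median share of 0.515 from the column that the member used, and the neighbour to the left 0.516. The members spanned a median of 41.2 kb of the genome, against 24.9 kb for all 5647 genes. By chromosome, the highest share was on chromosome 16, with 12 members of 272 genes (4.41%), and the lowest on chromosome 14, with 2 of 292 (0.685%). Several of the chromosome 16 members lie in the adjacent pairs given below. On chromosome 9, 11 of 12 members used the maternal column, and on chromosome 5, 8 of 10 used the paternal column, where the median Abl.2 AI of all genes was 0.498 and 0.464. Chromosomes 9 and 5 are given for their uneven split, which was 56 to 61 over all members.

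**Figure D4:**
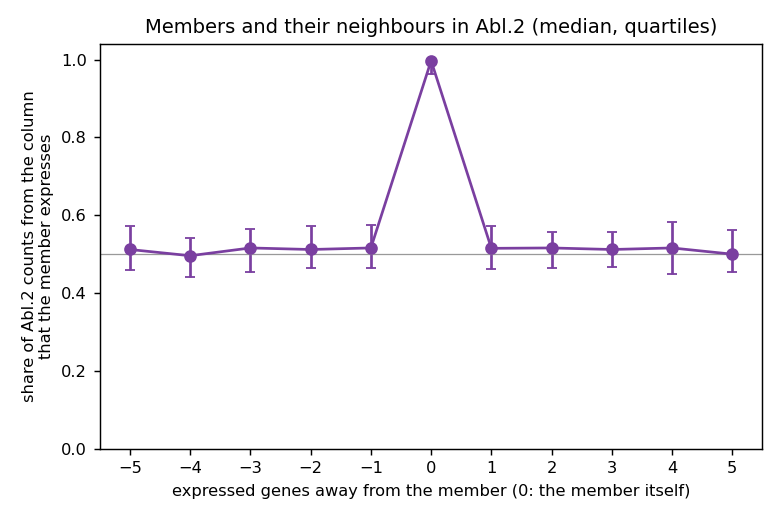
Share of Abl.2 counts from the column that the member expresses (vertical) at the member itself (position 0) and at the 5 nearest expressed genes on either side (horizontal, in genes). Points are medians over 115 to 117 genes and bars the quartiles. The median is 0.997 at the member and 0.496 to 0.516 beside it.

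There were 13 members with another member as neighbour, in 7 adjacent pairs. In 6 of the 7 pairs both genes used the same column. The exception was Erg and Ets2, a pair of ETS family transcription factors that lie 342.9 kb apart by their starts on chromosome 16. Erg had an AI of 1.00 and 1.00 in the Abl.2 libraries, and Ets2 had 0.00166 and 0. In Abl.1 Erg stood at 0.535 and 0.338 and Ets2 at 0.484 and 0.406. Erg was the 1 member among the 17 testable genes of the lymphoid transcription factor list.

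The other pairs were Mt2 and Mt1, Nudt7 and Vat1l, Itga1 and Pelo, Prodh and Zdhhc8, Hlcs and Pigp, and Pigp and Ttc3. Pelo, a ribosome rescue factor, lies inside the span of Itga1 on the same strand, at chr13:115088355-115090186 (GRCm38), so some of their reads may be hard to divide. Whether such reads affect the AI of Itga1 or Pelo was not tested. Their totals went apart, with Itga1 7.42-fold higher in Abl.2 and Pelo 2.08-fold lower. Prodh, which breaks down proline, and Zdhhc8, a palmitoyltransferase, parted likewise, at 2.89-fold higher and 2.06-fold lower.

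Pigp, which serves GPI anchor synthesis, and Ttc3 are transcribed in opposite directions, and their 5′ ends overlap. The study's counting left out regions shared by genes, but was not stated to use strand. In Abl.2 their AI was 0.00597 and 0 for Pigp and 0.000473 and 0.000471 for Ttc3, and neither total differed by more than 1.35-fold between clones. The 300 bases around the Ttc3 start, from RefSeq (GRCm38.p6), share 288 bases with a Pigp window and are shown because both genes used the same column. Capitals mark the core bound by NRF1, which reads the same on both strands and was found in 0.971% of all 32851 promoter windows of this length.
Ttc3, chr16:94370489-94370788, plus strand: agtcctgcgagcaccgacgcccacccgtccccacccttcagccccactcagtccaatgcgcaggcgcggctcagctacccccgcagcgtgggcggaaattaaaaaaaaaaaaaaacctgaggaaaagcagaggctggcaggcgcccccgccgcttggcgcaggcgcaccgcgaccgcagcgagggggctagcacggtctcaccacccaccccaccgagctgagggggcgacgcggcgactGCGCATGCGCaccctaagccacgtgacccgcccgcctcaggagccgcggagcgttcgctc

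Mt2 and Mt1 encode metallothioneins, small cysteine-rich proteins that bind zinc and copper and are induced through metal response elements. Their starts lie 6.42 kb apart on the plus strand of chromosome 8, and both used the maternal column in Abl.2. The AI of Mt1 was 0.435 and 0.466 in Abl.1 and 0.955 and 0.960 in Abl.2, and that of Mt2 was 0.376 and 0.431 against 0.923 and 0.942. Neither was complete, with 1002 of 23691 Mt1 counts (4.23%) and 47 of 690 Mt2 counts (6.81%) from the other allele. Their levels differed in how far they moved. Mt1 was 2.29-fold lower in Abl.2 with a kept allele at 601.5 and 383.9 CPM in Abl.1 and 452.3 and 472.5 in Abl.2, and Mt2 was 12.3-fold lower with its kept allele 5.32-fold lower.

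The RefSeq promoter windows of the pair, 250 bases before to 50 after the start, are given with the core of the metal response element in capitals (TGCACNC or TGCGCNC, either strand). The core was matched at 3 places for Mt1 and 4 for Mt2, and 25.7% of all windows hold at least 1 match.
Mt1, chr8:94178839-94179138, plus strand: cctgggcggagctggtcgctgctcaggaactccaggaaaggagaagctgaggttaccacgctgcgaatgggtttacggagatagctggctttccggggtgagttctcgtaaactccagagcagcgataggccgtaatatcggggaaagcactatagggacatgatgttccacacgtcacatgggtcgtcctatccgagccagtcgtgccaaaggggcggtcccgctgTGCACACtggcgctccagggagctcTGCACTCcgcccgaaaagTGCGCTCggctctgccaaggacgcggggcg
Mt2, chr8:94172368-94172667, plus strand: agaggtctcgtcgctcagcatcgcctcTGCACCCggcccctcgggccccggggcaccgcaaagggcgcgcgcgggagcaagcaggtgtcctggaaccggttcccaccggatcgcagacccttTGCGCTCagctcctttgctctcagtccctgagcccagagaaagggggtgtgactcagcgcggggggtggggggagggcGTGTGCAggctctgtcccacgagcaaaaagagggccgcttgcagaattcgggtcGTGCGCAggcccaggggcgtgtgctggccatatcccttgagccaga
A match is a description of these letters and not a bound site. Over the 98 members with a RefSeq window the median number of CpG dinucleotides was 21.0 in 300 bases, against 22.0 over 4468 of the 5647 genes, and 79.6% against 89.7% held 10 or more.

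The members are next given by family list, beside the 2.07% that members make up of all 5647 genes. Of 91 testable solute carriers 3 (3.30%) were members, the fatty acid transporter Slc27a1, the zinc transporter Slc30a4 and the amino acid transporter subunit Slc7a7, all from the maternal column. The semaphorin and plexin list held 2 of 8 (Sema4a and Plxnb2) and the integrin list 1 of 6 (Itga1). A single member each came from the cytokine receptors (Il1rap, of 17), the MAP kinase names (Map3k20, of 30), the interferon-inducible families (Oas1a, of 29) and the histones (Hist1h1a, of 26). None came from the 7 testable B lineage markers, the 4 imprinted genes, the 75 Tmem genes, the 21 G protein-coupled receptors or the 14 genes with a Cd name. Names such as RIKEN or Gm made up 6 of 274 (2.19%). The remaining lists reported here had 13 or fewer testable genes and 0 members. No test was made on any list.

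The kidney libraries address whether the same genes lean to an allele in a tissue of many cells and cell types. With SMARTseq from 10 ng, the kit and input of the clones, 103 of the 117 genes had 10 or more counts in each of the 6 libraries. Their median AI was 0.517 for genes expressed from the maternal column in Abl.2 and 0.504 for those expressed from the paternal column. An AI from 0.3 to 0.7 was found for 94 of the 103 (91.3%), against 94.2% of the genes that could be members. At most 0.1 or at least 0.9 was reached by 1 gene, Endou. The AI differed from 0.5 in 33 of the 103 (32.0%) by the QCC-corrected proportional test with Bonferroni adjustment, against 24.4% of all 10739 genes tested and 21.4% of those that could be members. Of these 33, 18 leaned to the column that Abl.2 used and 15 to the opposite one. With NEBNext 26 of 101 (25.7%) differed, against 18.4% of all genes tested and 14.5% of those that could be members. With SMARTseq from 100 pg 17 of 96 (17.7%) differed, against 14.3% and 11.7%. All kidney libraries came from 1 RNA of 1 animal, so the tests cover the spread between libraries alone. The counts called rose to 58, 45 and 39 with edgeR, whose share over all genes was 44.0%, 34.5% and 25.8%.

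**Figure D5:**
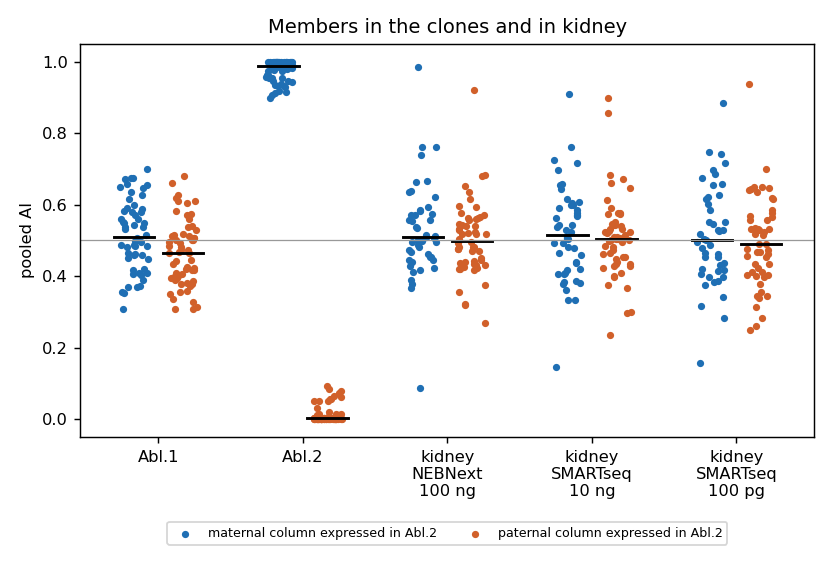
Pooled AI (vertical) of the members in Abl.1, Abl.2 and the 3 kidney experiments, split by the column that Abl.2 expressed, with medians as bars. The split in Abl.2 is not seen in kidney, where the medians of the groups all lie from 0.489 to 0.517.

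The 5 members farthest from equal use of both alleles in kidney were Endou, St3gal5, Epdr1, Btg3 and Sgcb. Endou, an endoribonuclease, had an AI of 0.910 ± 0.0492 (SD, n = 6 libraries), from 0.855 through a median of 0.906 to 0.983, in the same direction as its 0.979 and 0.994 in Abl.2 (edgeR adjusted p = 1.32e-10). Sgcb, the beta subunit of the sarcoglycan complex, was low in kidney as in Abl.2, at 0.239 ± 0.0691 (SD, n = 6), from 0.151 through 0.247 to 0.323 (edgeR adjusted p = 1.02e-09). The Abl.1 libraries had 0.581 and 0.581 for Endou and 0.458 and 0.373 for Sgcb. That Abl.1 lay nearer to 0.5 than kidney follows from the rule and from how both genes were chosen.

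The other 3 leaned away from the allele that Abl.2 used. St3gal5, the enzyme that makes the ganglioside GM3, had an AI of 0.895 ± 0.106 (SD, n = 6) in kidney, from 0.722 through 0.903 to 1.00, against 0.0837 and 0.0149 in Abl.2 (edgeR adjusted p = 1.72e-06). Epdr1 had 0.849 ± 0.151 (SD, n = 6), from 0.591 through 0.880 to 1.00, against 0 and 0 in Abl.2 (edgeR adjusted p = 1.61e-05), and rested on 195 kidney counts in all. Btg3, an antiproliferative BTG family protein, had 0.143 ± 0.0524 (SD, n = 6), from 0.0545 through a median of 0.143, against 1.00 and 0.996 in Abl.2 (edgeR adjusted p = 4.72e-09). In these 3 genes no SMARTseq 10 ng kidney library overlapped an Abl.2 library, which their choice by extreme AI in both all but fixes. The pooled AI with NEBNext and SMARTseq 100 pg was 0.922 and 0.937 for St3gal5 and 0.0878 and 0.158 for Btg3, all called. For Epdr1 it was nearer to 0.5, at 0.688 and 0.645, on 144 and 121 counts that were too few to test.

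Of the other 36 members named by the rule, 10 were also called in SMARTseq 10 ng kidney, against 24.4% of all genes tested. Mt1, Mt2, Smad3, Siae, Abca3, Emb, Pdlim1 and Sirt5 (8 of the 10) leaned to the column that Abl.2 used. Nudt7 at 0.418 ± 0.0495 and Avpi1 at 0.574 ± 0.0118 (SD, n = 6 each) leaned to the opposite one. Over all 33 members called the split was 18 to 15, so the 8 of 10 holds for these named genes alone. Of the solute carriers, Slc30a4 at 0.656 ± 0.0804 leaned to the Abl.2 column and Slc7a7 at 0.377 ± 0.0140 (SD, n = 6 each) to the opposite one. Mt1 had 0.698 ± 0.00715 (SD, n = 6) in kidney (edgeR adjusted p = 3.68e-22) and Mt2 had 0.659 ± 0.0335 (edgeR adjusted p = 5.94e-08, n = 6), both toward the column that Abl.2 used. Pdlim1 at 0.372 ± 0.0659 (SD, n = 6) and Emb at 0.398 ± 0.0527 (SD, n = 6) were lower than 0.5, the side that Abl.2 took. Cnn3 at 0.505 ± 0.0103, Tpd52 at 0.510 ± 0.0183 and Casp6 at 0.511 ± 0.0248 (SD, n = 6 each) did not pass either test with SMARTseq 10 ng, where their library ranges all spanned 0.5. With NEBNext, Cnn3 was called, at a pooled AI of 0.538 and from 0.501 to 0.569 (edgeR adjusted p = 8.61e-04).

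The kidney AI of some members differed between library methods. NEBNext and SMARTseq 10 ng differ in both kit and RNA input, which cannot be told apart. Between NEBNext 100 ng and SMARTseq 10 ng the edgeR test of allele by experiment called 13 of 100 members (13.0%), against 10.6% of all genes, with 3 higher in SMARTseq, against 5.61%, and 10 lower, against 4.95%. The count was 3 with limma on logit AI, namely Endou, Mt1 and Mtx3, against 6.82% of all genes. It was 7 to 11 when any 1 library was left out, against 9.10% to 10.7% of all genes. Mt1 was at 0.740 ± 0.0166 with NEBNext and at 0.698 ± 0.00715 with SMARTseq (n = 6 each, edgeR adjusted p = 2.75e-04), and Endou at 0.982 ± 0.0200 and 0.910 ± 0.0492 (n = 6 each, edgeR adjusted p = 0.00176). Between SMARTseq 10 ng and 100 pg, edgeR called 0 of 96 members, against 0.659% of all genes. At an unadjusted p under 0.05 there were 5 of the 96 (5.21%), against 8.15% of all genes. DESeq2 and limma also called 0, against 1.01% and 0.259% of all genes.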

How the data were processed

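Per the labels, the submitters' processing notes and the study's methods, the authors aligned reads with STAR 2.5.4a to both parental versions of GRCm38, kept unique reads, assigned them to an allele, sampled the libraries of an experiment to equal size, counted alleles at variants and summed them over exons outside overlapping regions. The deposited values are raw counts per gene and allele. Tables of the authors' pooled AI and its limits were not used. Reference bias, low counts and variant density can shift AI.

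From these counts AI, TMM-scaled CPM and QCC-widened 95% Wilson intervals were computed. The QCC was rebuilt for each pair of libraries, and the kidney test took the mean over 15 pairs. NEBNext pairs with replicate 1, which the study treated as an outlier, had a QCC of 2.05 to 2.14, and its other pairs 1.67 to 1.79. That library was kept here, and without it 26 of 104 members were called, against 17.5% of all genes tested. Kidney AI was tested against 0.5 by a two-sided proportional test on counts divided by the squared QCC, with Bonferroni adjustment over genes with 10 or more counts in each library at a threshold of 0.05. Experiments were compared by edgeR 4.0.16 quasi-likelihood tests (R 4.3.3) with Benjamini-Hochberg adjustment, and DESeq2 1.42.0 and limma 3.58.1 served as alternatives. Printed adjusted p-values are edgeR's. Fits were tested on simulated data. All 5647 genes matched GENCODE M21 on GRCm38 by identifier, which gave strand and type.

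Members and lists were chosen with earlier results of these data known. Genes were named by a rule: for each expressed column the 8 with the most counts, the 5 farthest from 0.5 in kidney, the 3 highest and 3 lowest ratios of total level, the 2 nearest on either side of each AI limit, those on marker or factor lists, those with a member as neighbour, and those failing in the second run or, for the 3 widest misses, in a single library. Other family members, genes higher in Abl.2 and genes differing between kidney methods were named after their values were seen. The result of 1 gene list is not reported here.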

Additional observations from a re-analysis of the deposited data

Results flagged for a closer look

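In kidney, edgeR called an AI difference between NEBNext 100 ng and SMARTseq 10 ng in 13 of 100 members (13.0%). The share over all genes was 10.6%, and limma called 3 members, against 6.82% of all genes. On the log2 odds scale of the maternal over the paternal column, SMARTseq minus NEBNext, the difference was -2.64 for Endou, -0.76 for Mtx3, -0.34 for Ephx1, -0.30 for Mt1, -0.25 for Slc7a7, -0.24 for App, -0.23 for Sardh, -0.20 for Cnn3, -0.18 for Gng12 and -0.14 for Abca3. It was positive for Zc2hc1a at 0.75, Ptk2 at 0.60 and Tpmt at 0.23. The edgeR adjusted p ranged from 2.19e-04 for App to 0.0495 for Gng12. Mtx3 changed sides of 0.5, from 0.594 ± 0.0369 with NEBNext to 0.464 ± 0.0449 with SMARTseq (SD, n = 6 libraries each), as did Ptk2, from 0.428 ± 0.0404 to 0.531 ± 0.0737, and Zc2hc1a, from 0.447 ± 0.0919 to 0.575 ± 0.0390.

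A library stood apart from the other 5 in 6 of the 40 groups of kidney values examined. For normally distributed values chance alone flags about 1 in 20 groups. AI near 0 or 1 is not so distributed, and most groups came from genes with extreme kidney AI or a difference between methods. No excess over chance can therefore be read from this number. With NEBNext, Btg3 had an AI of 0.692 in replicate 4, against 0 to 0.188 in the others, and St3gal5 had 0.730 in replicate 6, against 0.957 to 1.00. With SMARTseq 100 pg, Endou had 0.629 in replicate 4, against 0.960 to 1.00, and St3gal5 had 0.577 in replicate 1, against 0.875 to 1.00. With SMARTseq 10 ng, Mtx3 had 0.379 in replicate 5, against 0.461 to 0.503, and Ptk2 had 0.678 in replicate 1, against 0.477 to 0.526. These values are given without an explanation.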

How the results depend on the processing

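The rule found 113 members with the clone libraries thinned to the smallest total (112 shared with the 117), 126 with the resequenced run (111 shared), 95 at 0.05 and 0.95, 96 at 200 counts and 117 to 135 when 1 replicate of each clone was left out, and an Abl.1 range of 0.4 to 0.6 moved the number to 74. Leaving out 1 resequenced replicate gave 106 members kept. The kidney calls for SMARTseq 10 ng, NEBNext 100 ng and SMARTseq 100 pg were 33, 26 and 17. They became 58, 45 and 39 with edgeR, 52, 42 and 41 with DESeq2, 50, 46 and 52 without QCC correction, and 60, 47 and 44 with Benjamini-Hochberg adjustment. Each set included all of the 33, 26 and 17. Shares over all genes tested rose too, from 24.4%, 18.4% and 14.3%. They were 44.0%, 34.5% and 25.8% with edgeR and 36.3%, 31.1% and 27.8% with DESeq2. Without QCC correction they were 35.1%, 35.1% and 40.3%, and with Benjamini-Hochberg adjustment 45.3%, 36.7% and 29.8%. Without single replicates the member calls were 25 to 31, 22 to 26 and 13 to 16. The shares over all genes were then 22.1% to 22.5%, 16.1% to 17.5% and 12.5% to 12.9%. The difference between kits, 13 members, was 9 by DESeq2, 3 by limma and 15 at 50 counts. Over all genes the shares were 10.6%, 9.10%, 6.82% and 15.2%. The member count was 7 without NEBNext replicate 3 and 8 without NEBNext replicate 4 or SMARTseq 10 ng replicate 2, 5 or 6. It was 11 at most without any single library, where the share over all genes was 9.10% to 10.7%. The cause was not tested. With a replicate block the member count was 11, of which 10 were shared, against 9.72% of all genes. The difference between inputs stayed at 0. The AI deviations of same-numbered libraries had correlations of -0.00438 to 0.0240, and 3 of 12 libraries correlated best with their own number in each comparison. The main tests therefore did not pair libraries by number. Noise of single libraries can hide a weak shared effect of preparation, so these values cannot decide whether there was one. Scaling by total allelic counts moved the median total to -1.07 and the kept-allele median to -0.09, with the median of all genes moving by 0.34. Leaving out replicates gave -1.44 to -1.34 and -0.41 to -0.35. The neighbour count was 70 of 117 with neighbours at 50 counts, 86 of 117 with neighbours from 0.2 to 0.8 and 78 of 116 in the resequenced run. Over the genes that could be members these shares were 71.8%, 83.5% and 75.6%.

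Depth limits how low the share of the other allele can be placed. The QCC-widened interval of Gm13963, at 0 of 123 counts, reached an AI of 0.129, and Tpmt, at 0 of 324 in the first run, had 22 of 343 in the second.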
